A study of Mus musculus with 16 samples.

Results

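The serotonin receptors described here are 10 genes: Htr1a, Htr1b, Htr1d, Htr1f, Htr2a, Htr2c, Htr3a, Htr4, Htr5a and Htr7. They were found by gene symbol in the annotation of the array's transcript clusters, and all 10 were measured, among 30142 genes in all. Each had a single cluster, so no choice among clusters was needed. All 10 also passed the filter that left out the third of genes with the lowest mean level, which kept 20095 genes for testing. Htr7 passed it narrowly, with a mean of 5.54 against a limit of 5.53 on the log2 scale. The other known receptor genes on the array, Htr2b, Htr3b, Htr5b and Htr6, are described after the members.

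The arrays held RNA of cells labelled as parvalbumin interneurons, sorted by their red fluorescence from C57BL/6J mice that were 30 days old and labelled male. Cells came from the dorsal striatum or from the motor and somatosensory cortex of mice of 2 lines. PVCre mice carried 1 PVCre and 1 tdTomato allele (PVCre/+; tdTomato/+). PV-tdTomato mice carried the PV-tdTomato reporter (PV-tdTomato/+) and no Cre. This made 4 groups of 4 arrays: PVCre striatum, PVCre cortex, PV-tdTomato striatum and PV-tdTomato cortex. Every array came from 2000 sorted cells pooled from 2 to 4 mice, so a replicate is a pool and not an animal. Red fluorescence was present in all 4 groups, but it depended on different alleles in the 2 lines, so the sorted populations need not be the same. No unsorted tissue or unlabelled line was analysed here.

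Serotonin reaches the striatum and the cortex in fibres from the raphe nuclei. Its receptors fall into classes by what they couple to. The Htr1 and Htr5 receptors act through Gi/o proteins, which lower cyclic AMP and open inward rectifier potassium channels. The Htr2 receptors act through Gq and phospholipase C, and Htr4, Htr6 and Htr7 act through Gs, which raises cyclic AMP. Htr3a and Htr3b encode subunits of a cation channel that serotonin opens directly. In the mouse cortex, Htr3a marks a class of interneurons born in the caudal ganglionic eminence, many of which make the peptide Vip or the glycoprotein Reln. That class is distinct from the parvalbumin interneurons, which come from the medial eminence.

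Promoter sequence was at hand for 8 of the 10 receptors, from RefSeq on GRCm38.p6, as windows of 300 bases from 250 before to 50 after the annotated start. No window was at hand for Htr3a and Htr4. The 4 below are shown for the receptors whose levels the results turn on: Htr2a, whose level ran with that of Pvalb, Htr2c, which was lower in PVCre cells in both regions, Htr5a, which was lower in PVCre cortex, and Htr1f, which was higher in PVCre striatum. Each is printed 5′ to 3′ on the gene's strand, and capitals mark matches to the motifs named after them.
Htr2a: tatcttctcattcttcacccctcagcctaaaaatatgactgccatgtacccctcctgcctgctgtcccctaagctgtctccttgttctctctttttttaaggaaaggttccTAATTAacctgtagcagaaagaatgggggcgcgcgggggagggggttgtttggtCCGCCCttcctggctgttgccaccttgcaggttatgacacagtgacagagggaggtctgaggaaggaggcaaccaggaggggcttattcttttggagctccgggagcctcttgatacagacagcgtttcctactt
Htr2c: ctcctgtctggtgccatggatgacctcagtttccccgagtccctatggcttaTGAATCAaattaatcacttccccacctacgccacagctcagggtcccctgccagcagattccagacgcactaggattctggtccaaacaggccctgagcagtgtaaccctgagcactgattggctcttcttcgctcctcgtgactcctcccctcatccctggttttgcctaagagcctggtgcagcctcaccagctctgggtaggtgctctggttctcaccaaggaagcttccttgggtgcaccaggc
Htr5a: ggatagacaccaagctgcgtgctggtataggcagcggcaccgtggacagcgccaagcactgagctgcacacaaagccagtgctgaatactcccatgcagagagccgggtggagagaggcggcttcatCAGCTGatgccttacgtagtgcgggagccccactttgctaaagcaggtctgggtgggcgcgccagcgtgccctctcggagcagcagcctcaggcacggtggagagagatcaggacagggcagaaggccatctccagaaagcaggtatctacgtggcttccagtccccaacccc
Htr1f: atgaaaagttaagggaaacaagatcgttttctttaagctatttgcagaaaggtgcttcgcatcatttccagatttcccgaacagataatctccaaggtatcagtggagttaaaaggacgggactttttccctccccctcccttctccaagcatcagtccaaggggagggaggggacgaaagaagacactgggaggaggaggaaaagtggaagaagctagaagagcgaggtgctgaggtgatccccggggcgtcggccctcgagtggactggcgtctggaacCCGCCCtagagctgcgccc
The Htr2a window lies at chr14:74640624-74640923 on the plus strand, Htr2c at chrX:146962263-146962562 on the plus strand, Htr5a at chr5:27841697-27841996 on the plus strand and Htr1f at chr16:65105735-65106034 on the minus strand. Motifs were searched on both strands. The letters searched for were TATAAA for the core promoter box of that name, GGGCGG for the box bound by Sp factors, CANNTG for the E-box of helix-loop-helix factors, TAATTA for the homeodomain core and TGANTCA for the AP-1 site. Htr2a held 1 TAATTA match, a motif present in 5.3% of 32851 promoters, and 1 Sp box, present in 35.7%. Htr2c held 1 match to TGANTCA, with the letters TGAATCA, a motif present in 7.8%. The search allowed any middle base, so a match need not have that of an AP-1 site. Htr5a held 1 E-box, present in 72.3% of promoters, and Htr1f held 1 Sp box. None of the 4 held TATAAA, present in 13.6%, and no printed matches overlap. The Htr7 window differed from these in base composition, with 81.0% G and C and 46 CpG sites, against a median of 52.7% and 7 over all promoters. A match is a description of letters and not a known binding site.

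Levels are log2 values on which 1 unit is a doubling, and probes differ in how well they bind, so levels of different genes were not ranked against each other. Array medians lay between 5.92 and 6.1, and 23 background probe sets, which match no mouse gene, had means of 2.95 to 6.1. A receptor level near or under 6.1 is therefore close to background. The labels give no slide, date or batch. In the checks of the labels, Pvalb ranged over the arrays from 6.69 to 12.48 and the GABA-synthesising enzyme Gad1 from 7.4 to 14.43. Pvalb was lowest, between 6.69 and 8.4, on replicates 2 and 4 of PVCre cortex and on replicates 3 and 4 of both PV-tdTomato groups. PVCre cortex replicate 4 went furthest against its label, with Pvalb at 6.69, Gad1 at 7.4, Gad2, another GABA-synthesising enzyme, at 6.56, and an oligodendrocyte marker mean of 15.65. Xist, made by cells with an inactive X chromosome and so by female cells, was above 12 on 8 of the 16 arrays, against the male label. Those arrays were replicates 1, 3 and 4 of both PVCre groups and replicate 3 of both PV-tdTomato groups. Each result below that rests on these arrays was therefore also computed without them. The separation of positive from negative control probes was 3.08 to 3.93 log2 units on PVCre arrays and 4.16 to 4.85 on PV-tdTomato arrays, with no overlap between the lines. Oligodendrocyte markers were high in every group, with list means of 12.85 to 15.65.

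Htr3a was the receptor that differed most between the groups. On replicates 1 to 4 it measured 5.94, 6.26, 6.51 and 6.92 in PVCre striatum and 5.79, 5.89, 5.69 and 5.68 in PVCre cortex. It measured 9.89, 9.36, 8.07 and 7.65 in PV-tdTomato striatum and 14.17, 13.84, 9.97 and 10.74 in PV-tdTomato cortex. Every PV-tdTomato array stood above every PVCre array, every PV-tdTomato cortical array stood above every striatal one, and all 4 PVCre cortical arrays lay within the background range. In the PV-tdTomato line, Htr3a was lower in striatum than in cortex, averaging 8.74 ± 1.06 in striatum and 12.18 ± 2.14 in cortex (SD, n = 4 each). The difference was -3.44 ± 0.79 (SE), 10.8-fold, with an adjusted p of 0.03 from limma. The count of cells of a type and the RNA each holds cannot be told apart in such pooled samples. Htr3a was the only one of the 10 receptors called in this comparison, which called 2.36% of all genes tested and 0.602% as lower in striatum.

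Markers of the interneurons of the caudal eminence moved with Htr3a. Of 10 tested, 7 were lower in PV-tdTomato striatum than in PV-tdTomato cortex and 0 were higher. The mean of the 11 measured markers lay at 7.35 to 7.55 in striatal and 9.07 to 11.18 in cortical PV-tdTomato arrays. Vip averaged 5.63 in PV-tdTomato striatum and 13.06 in PV-tdTomato cortex, and Reln averaged 6.6 and 10.98 in the same order. In the PVCre line striatal arrays had list means of 6.35 to 6.55 and cortical arrays 6.27 to 6.39, and Vip averaged 5.18 in striatum and 5.81 in cortex. Of the 10 tested there, only Cnr1 was called, as higher in striatum (9.54 in striatum, 6.03 in cortex). The median difference of the 10 was -0.1. The transcription factor Sp8, another marker of these cells, was at background in all 4 groups, with no array above 5.82. Over the 8 PV-tdTomato arrays Htr3a and Vip ran together (Pearson r = 0.94, a description over arrays of 1 line), and over the 8 PVCre arrays, where Vip reached at most 6.12, they ran opposite (r = -0.73). The part that these cells had in the Htr3a result was not tested.

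The Htr3a difference between the regions of the PV-tdTomato line kept its sign under all 29 alternatives and its call under 21. Without replicate 2, 3 or 4 of striatum or replicate 1 or 2 of cortex it was -3.64 to -2.77 and not called (adjusted p 0.053 to 0.12), and without the 8 high-Xist arrays it was -3.95 (adjusted p 0.3). Array weights gave the smallest difference, -1.94 (adjusted p = 0.079), and a fit of only the arrays compared left -3.44 without a call (adjusted p = 0.31). In the PVCre line every striatal array exceeded every cortical one, but by little: 6.41 ± 0.41 in striatum and 5.76 ± 0.10 in cortex, a difference of 0.64 ± 0.79 (adjusted p = 0.73). The estimated region differences thus had opposite signs in the 2 lines, but that of the PVCre line was smaller than its SE. Over the alternatives the PVCre value ranged from -0.28 to 0.8. The test of the contrast between the lines, the interaction, gave 4.08 ± 1.11 with an adjusted p of 0.24 from limma. With replicate numbers as pairs it was called (adjusted p = 0.022), and also without the 6 arrays of lowest Pvalb (5.05, adjusted p = 0.00056). In the latter fit PVCre cortex had only replicates 1 and 3, and each PV-tdTomato region had only replicates 1 and 2. For PV-tdTomato cortex this kept Htr3a at 14.17 and 13.84 and dropped the lower 9.97 and 10.74. For PV-tdTomato striatum it kept 9.89 and 9.36 and dropped 8.07 and 7.65. Whether the larger difference came from this choice of arrays was not tested. In the main fit, the interaction called 5 of 10 tested caudal-eminence markers (Vip, Reln, Ndnf, Lamp5 and Adarb2). All were higher, as was the Htr3a value, against 0.149% of all genes called as higher. Their part in the Htr3a contrast was not tested.

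**Figure D1:**
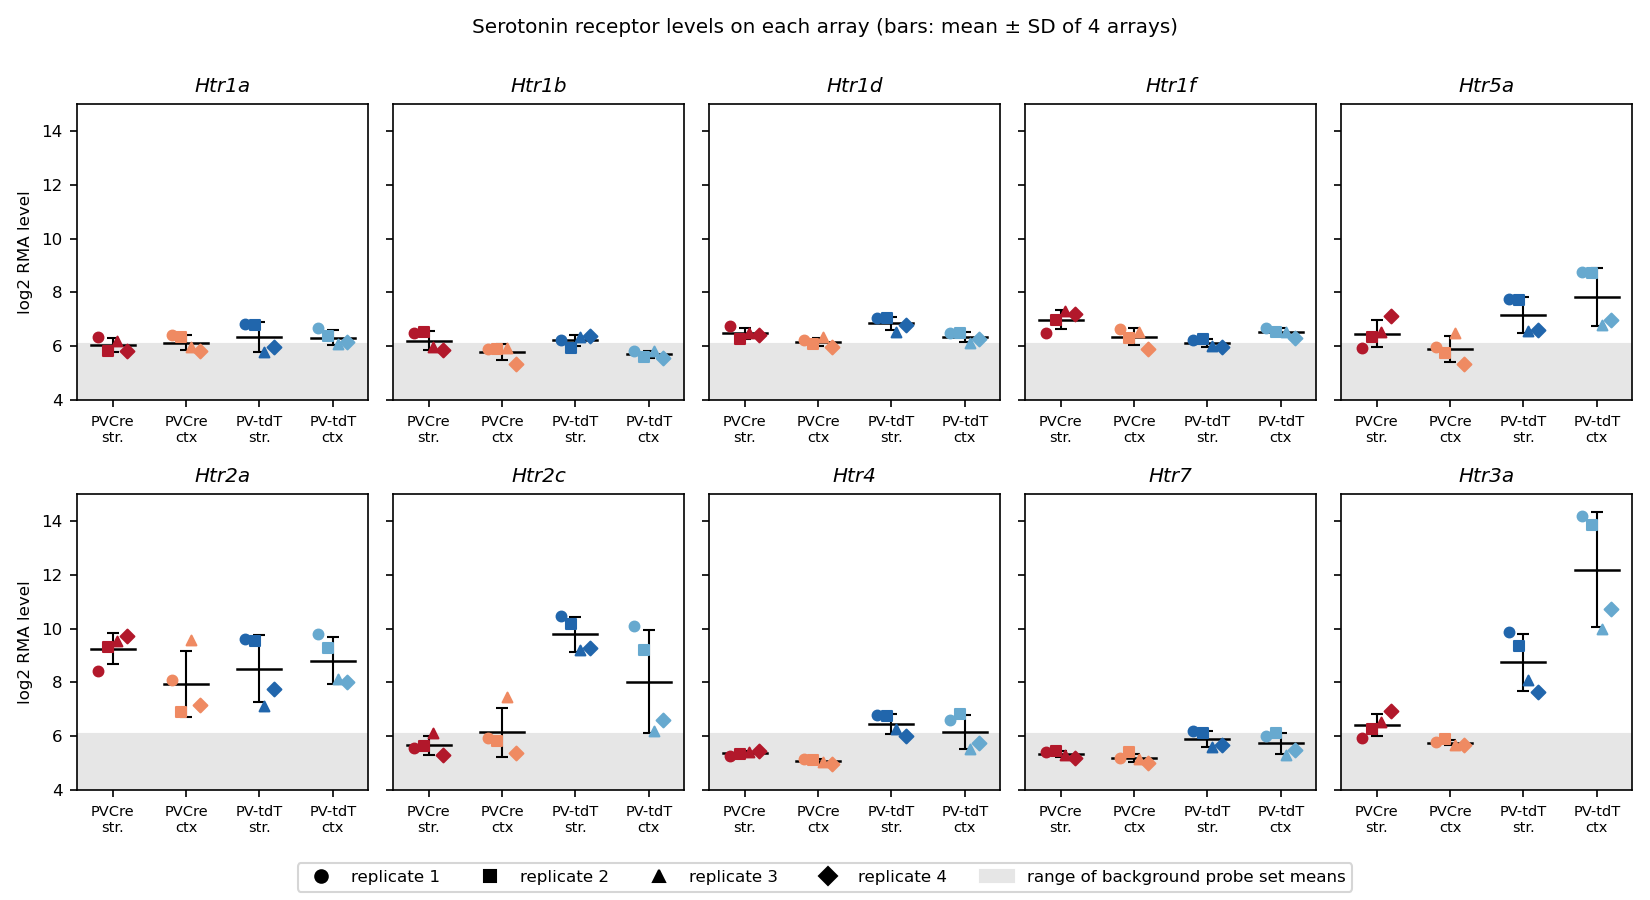
Level of each of the 10 receptors (vertical axis, log2 RMA level) on every array, by group (horizontal axis), with symbols for replicate numbers, bars for the mean and SD of 4 arrays, and grey for the range of background probe set means. Htr3a spans 5.68 to 14.17, and all Htr4 and Htr7 values of the PVCre groups lie in the grey range. Replicates 1 and 2 stand above 3 and 4 in both PV-tdTomato groups for every receptor except Htr1b. The share of all genes with that order was not computed.

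Between the lines, Htr3a was lower in PVCre cells in both regions. In cortex the difference, PVCre minus PV-tdTomato, was -6.42 ± 0.79 (limma, adjusted p = 1.6e-05). As all PVCre cortical arrays were at background, it is given as at least 67.7-fold lower. It was called under all 29 alternatives, with values of -8.27 to -4.65. In striatum Htr3a was lower by at least 4.91-fold (difference -2.33 ± 0.79, adjusted p = 0.022). That call was lost without PV-tdTomato striatum replicate 1 (-1.95, adjusted p = 0.068) or 2 (-2.13, 0.055), without PVCre striatum replicate 1 (-2.18, 0.054), and without the 8 high-Xist arrays (-2.70, 0.23). With the oligodendrocyte marker mean as a covariate it was -1.07 (adjusted p = 0.025). Of the caudal-eminence markers, 10 of 10 tested were lower in PVCre cortex than in PV-tdTomato cortex, where 34.6% of all genes were called as lower. In striatum 3 of 10 were lower in PVCre cells, no more than the 35.3% of all genes called as lower there.

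**Figure D2:**
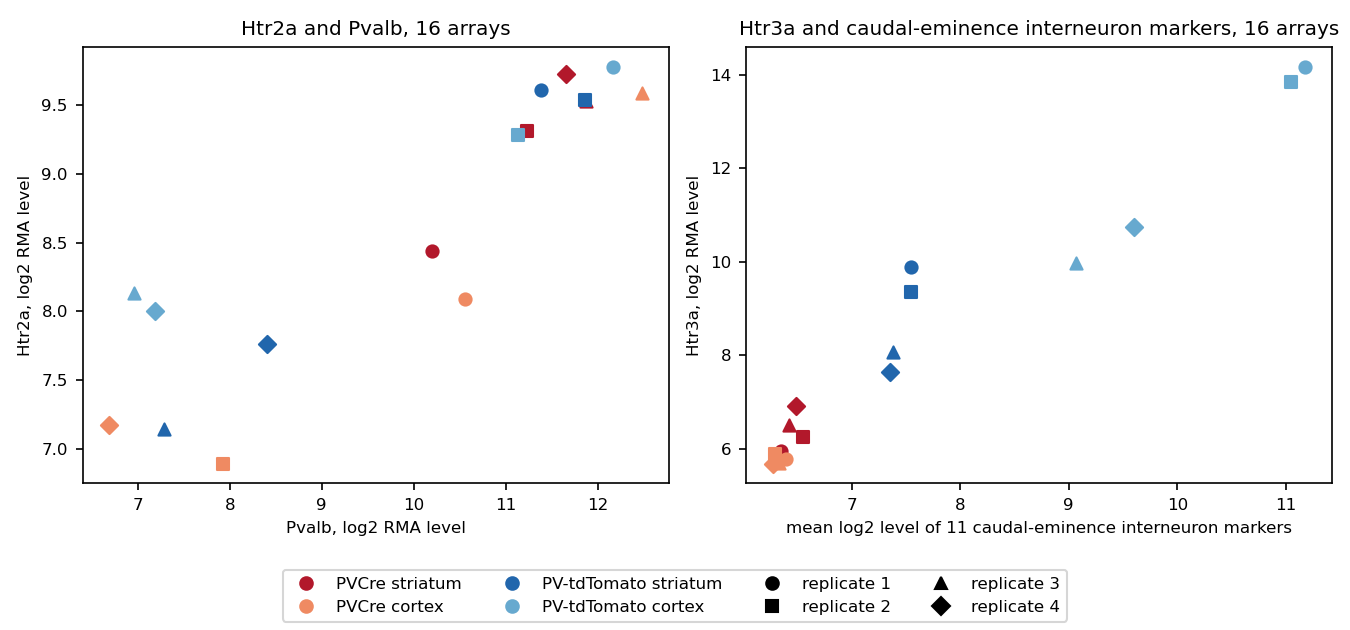
Left, Htr2a against Pvalb, and right, Htr3a against the mean of 11 caudal-eminence interneuron markers, both in log2 RMA levels, with 1 point per array, colours for groups and symbols for replicates. Htr2a is at 9.28 or above on the 8 arrays with Pvalb above 11 and at 8.44 or below on the others, and the 4 PV-tdTomato cortical arrays, with marker means of 9.07 to 11.18, hold Htr3a at 9.97 to 14.17.

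The line comparisons have to be read against a wide background, because most genes tested were called. In striatum 6 of the 10 receptors were called, 1 higher and 5 lower in PVCre cells, while 53.4% of all genes were called, 18.1% as higher and 35.3% as lower. In cortex 5 of 10 were called, all lower, while 53.6% of all genes were called and 34.6% as lower. The share of receptors called was thus near the background in both regions. The median receptor difference was -0.47 in striatum and -0.70 in cortex, and the median over all genes tested was -0.23 in each. With quantile normalization the latter medians were -0.06 and -0.02, and the share of called genes that were higher in PVCre cells was 45.6% in striatum and 49.5% in cortex, against 33.9% and 35.4% as deposited. All receptors called in a line comparison kept their direction under that scaling. As no batch is recorded, a batch that followed the line and the line itself cannot be told apart.

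Counts of cell type markers between the lines stand beside those of all genes. In striatum 18.1% of all genes were called as higher and 35.3% as lower in PVCre cells, and in cortex 19% and 34.6%. Microglial markers had list means of 7.57 to 8.73 in PVCre striatum, against 5.43 to 5.71 in PV-tdTomato striatum, and of 7.3 to 9.42 in PVCre cortex, against 5.35 to 5.79 in PV-tdTomato cortex. All 9 tested were higher in PVCre cells in both regions. Oligodendrocyte markers were higher in PVCre cells for 4 of 9 tested in striatum and 6 of 9 in cortex. Endothelial and pericyte markers had list means of 6.87 to 9.02 in PVCre striatum, against 5.82 to 6.21 in PV-tdTomato striatum, and there 7 of 9 tested were higher and 1 lower in PVCre cells. In cortex 1 of the 9 was higher and 1 lower. Oligodendrocyte precursor markers were lower in PVCre cells for 4 of 4 tested in striatum and 3 of 4 in cortex. Parvalbumin interneuron markers were lower in PVCre cells for 2 of 10 tested in striatum, under the share of all genes, and 5 of 10 in cortex, and 0 were higher. Somatostatin interneuron markers were lower in PVCre cells for 1 of 4 tested in striatum, also under that share, and 3 of 4 in cortex. Choroid plexus, a tissue in which Htr2c is known to be abundant, had list means of 4.82 to 5.11 on all arrays, so its markers were at background. The part of these cells in the receptor differences was not tested.

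The Gq-coupled receptors are Htr2a and Htr2c. Htr2c, an X-linked receptor whose transcript is edited, was lower in PVCre cells. It measured 5.56, 5.63, 6.12 and 5.31 in PVCre striatum and 5.93, 5.81, 7.47 and 5.37 in PVCre cortex. It measured 10.47, 10.18, 9.19 and 9.29 in PV-tdTomato striatum and 10.08, 9.20, 6.19 and 6.61 in PV-tdTomato cortex. The lines did not overlap in striatum, but they did in cortex, where PV-tdTomato replicates 3 and 4 lay near the PVCre arrays. In striatum Htr2c was lower in PVCre cells, with a difference of -4.13 ± 0.73 (adjusted p = 3e-04), at least 12.8-fold since 3 of the 4 PVCre arrays were within the background range. The call held under 28 of 29 alternatives; without the 8 high-Xist arrays the difference was -4.35 (adjusted p = 0.062).

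In cortex Htr2c averaged 6.15 ± 0.91 in PVCre cells and 8.02 ± 1.91 in PV-tdTomato cells. The difference was -1.87 ± 0.73 (limma, adjusted p = 0.042), or 2.98-fold lower with PVCre levels under 6.1 set to 6.1. This call held under 15 of 29 alternatives. It was lost, for example, without PV-tdTomato cortex replicate 1 (-1.18, adjusted p = 0.15) or 2 (-1.48, 0.12). Leaving out PVCre cortex replicate 1, 2 or 4 (-1.80 to -1.61, 0.083 to 0.11) or PVCre striatum replicate 1, 2 or 4 (-1.87, up to 0.052) also ended it. So did the replicate block (0.08) and oligodendrocyte markers as a covariate (-0.42, 0.52). Between regions Htr2c was not called in either line. It averaged 9.78 in striatum and 8.02 in cortex of PV-tdTomato mice, with a difference of 1.77 ± 0.73 (adjusted p = 0.48), and 5.65 in striatum and 6.15 in cortex of PVCre mice, with -0.49 ± 0.73 (adjusted p = 0.78). Markers of striatal projection neurons, which also express Htr2c, had list means of 7.16 to 7.88 in PVCre striatum and 8.2 to 8.41 in PV-tdTomato striatum. Of 7 tested, 5 were lower in PVCre striatum, where 35.3% of all genes were called as lower. Their part in the Htr2c difference was not tested.

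Htr2a, the receptor through which psychedelic drugs act, was clearly above background in all groups and differed within groups more than between them. It measured 8.44, 9.31, 9.53 and 9.73 in PVCre striatum and 8.09, 6.89, 9.59 and 7.17 in PVCre cortex. It measured 9.61, 9.54, 7.14 and 7.76 in PV-tdTomato striatum and 9.78, 9.28, 8.13 and 8 in PV-tdTomato cortex. The 6 arrays of lowest Pvalb held Htr2a at 6.89 to 8.13, and of the other arrays only PVCre cortex replicate 1, at 8.09, lay in that range. In both PV-tdTomato groups replicates 3 and 4, which are among those 6 arrays, lay below replicates 1 and 2 for 9 of the 10 receptors, all except Htr1b. The share of all genes with that order was not computed, so the count is not a result about the receptors. Over all genes tested, same-numbered arrays of these 2 groups deviated together from their group means (r = 0.58 to 0.76). Over the 16 arrays Htr2a and Pvalb had a Pearson r of 0.90, and r was 0.93 over the 8 PVCre and 0.93 over the 8 PV-tdTomato arrays. This pair was chosen after the values were seen, arrays of a group share their line and region, and the correlation is a description with no test. Spearman's rho was 0.85, 0.88 and 0.76 over the same sets.

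No comparison called Htr2a. The region difference was 1.32 ± 0.66 in the PVCre line (9.25 in striatum, 7.93 in cortex, adjusted p = 0.36) and -0.28 ± 0.66 in the PV-tdTomato line (8.51 and 8.80, adjusted p = 0.98). The line difference was 0.74 ± 0.66 in striatum (adjusted p = 0.37) and -0.86 ± 0.66 in cortex (adjusted p = 0.28). Without the 6 arrays of lowest Pvalb the region difference was 0.41 in the PVCre and 0.05 in the PV-tdTomato line, and the line difference in striatum was -0.33. With the oligodendrocyte covariate the line difference in striatum was 1.65 and called (adjusted p = 0.0085). With an SE of 0.66, differences near 1 log2 unit could not be resolved in these groups.

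**Figure D3:**
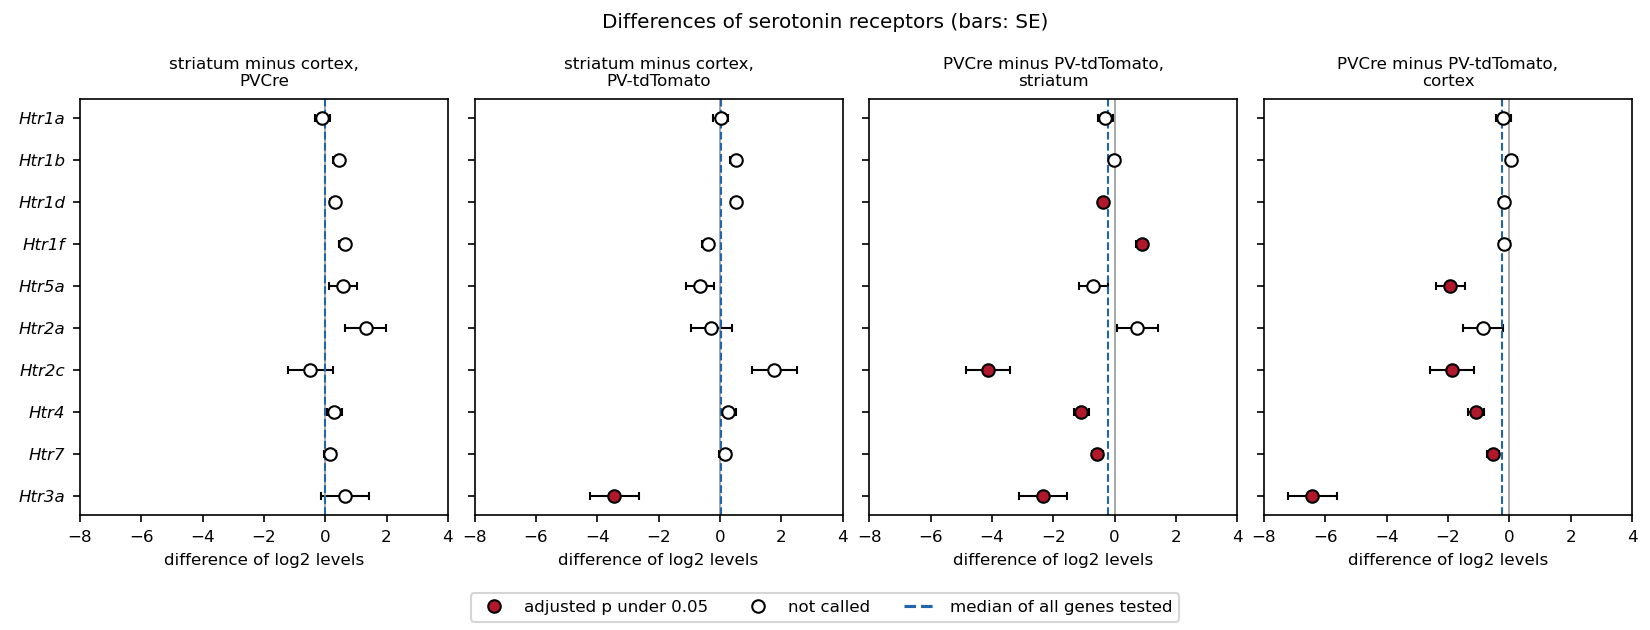
Difference of log2 levels with its SE for each receptor in the 4 comparisons, filled where the limma adjusted p is under 0.05, with a dashed line at the median of all genes tested. Htr3a is the filled point in the PV-tdTomato region panel (-3.44), no point is filled in the PVCre region panel, and Htr1f is the filled point to the right of 0 in the striatal line panel (0.88).

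Among the Gi/o-coupled receptors, Htr1f was the member that was higher in PVCre cells. It measured 6.49, 6.96, 7.32 and 7.19 in PVCre striatum and 6.64, 6.32, 6.51 and 5.91 in PVCre cortex. It measured 6.22, 6.26, 6.00 and 5.97 in PV-tdTomato striatum and 6.68, 6.54, 6.53 and 6.31 in PV-tdTomato cortex. In striatum all PVCre arrays stood above all PV-tdTomato arrays, and in cortex the lines overlapped. The striatal difference between the lines was 0.88 ± 0.18 (adjusted p = 0.0012), at least 1.77-fold higher as 2 of the 4 PV-tdTomato arrays were at background. It was called in 28 of 29 alternatives and missed only without the 8 high-Xist arrays (0.81, adjusted p = 0.056). The cortical difference was -0.17 ± 0.18 (adjusted p = 0.45).

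Htr1f ran in opposite directions between regions in the 2 lines, without a call in either. It averaged 6.99 in striatum and 6.35 in cortex of PVCre mice, a difference of 0.64 ± 0.18 (adjusted p = 0.074), and 6.11 in striatum and 6.52 in cortex of PV-tdTomato mice, a difference of -0.40 ± 0.18 (adjusted p = 0.61). The interaction was 1.04 ± 0.26 with an adjusted p of 0.2. Without PVCre striatum replicate 1, the lowest of its group, the PVCre region difference was 0.81 and called (adjusted p = 0.014). Array weights also gave a call (0.56, adjusted p = 0.026). Ependymal markers, which were higher in striatum in both lines for 6 of 6 tested, had list means of 11.53 to 13.02 in PVCre striatum, 5.82 to 6.47 in PVCre cortex, 9.58 to 11.06 in PV-tdTomato striatum and 5.8 to 6 in PV-tdTomato cortex. Endothelial and pericyte markers also ran highest in PVCre striatum, at 6.87 to 9.02, against 5.78 to 6.13 in PVCre cortex, with 5 of 9 tested higher in striatum in that line. In the PV-tdTomato line 1 of the 9 was higher in striatum. Of all genes, 2.9% were called as higher in striatum in the PVCre and 1.76% in the PV-tdTomato line. The part of ependymal, endothelial and pericyte cells in the Htr1f levels was not tested.

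Htr5a was lower in PVCre cortex than in PV-tdTomato cortex. It measured 5.93, 6.33, 6.51 and 7.11 in PVCre striatum and 5.98, 5.74, 6.48 and 5.34 in PVCre cortex. It measured 7.77, 7.70, 6.57 and 6.62 in PV-tdTomato striatum and 8.77, 8.73, 6.78 and 6.99 in PV-tdTomato cortex. The cortical groups did not overlap, and in PV-tdTomato mice replicates 1 and 2 exceeded 3 and 4 in both regions. The cortical difference was -1.93 ± 0.47 (adjusted p = 0.0033), at least 3.08-fold lower, and it was called in 28 of 29 alternatives, with -2.42 (adjusted p = 0.067) without the 8 high-Xist arrays. In striatum it was -0.70 ± 0.47 (adjusted p = 0.23), and without the 6 arrays of lowest Pvalb it was -1.27 and called (adjusted p = 0.0058). Neither region comparison called Htr5a (0.58 ± 0.47 in the PVCre and -0.65 ± 0.47 in the PV-tdTomato line).

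Htr1b and Htr1d, which sit on axon terminals and limit transmitter release, were both nominally higher in striatum. Htr1d measured 6.74, 6.27, 6.50 and 6.40 in PVCre striatum and 6.22, 6.08, 6.34 and 5.98 in PVCre cortex. It measured 7.03, 7.06, 6.52 and 6.80 in PV-tdTomato striatum and 6.50, 6.48, 6.11 and 6.26 in PV-tdTomato cortex. The regions did not overlap in the PV-tdTomato line. That region difference was 0.51 ± 0.15 (adjusted p = 0.12), it was called with replicate numbers as pairs (adjusted p = 0.03), and the PVCre one was 0.32 ± 0.15 (adjusted p = 0.31). Between the lines Htr1d was lower in PVCre striatum, with a difference of -0.37 ± 0.15 (adjusted p = 0.045) and overlapping arrays. This call was the least stable of the set, since it held under 13 of 29 alternatives and was lost, for example, without PVCre striatum replicate 2 (-0.30, adjusted p = 0.13), without PV-tdTomato striatum replicate 1 or 2 (-0.32 and -0.31, 0.12 each) and with quantile normalization (-0.26, 0.15).

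Htr1b levels were 5.86 to 6.54 in PVCre striatum and 5.33 to 5.95 in PVCre cortex, and 5.93 to 6.37 in PV-tdTomato striatum and 5.56 to 5.82 in PV-tdTomato cortex. All cortical arrays therefore lay within the background range. The striatum exceeded the cortex by 0.44 ± 0.18 in the PVCre line (adjusted p = 0.25) and by 0.51 ± 0.18 in the PV-tdTomato line (adjusted p = 0.29), where the arrays did not overlap. Neither was called, and line differences were -0.01 in striatum and 0.07 in cortex, each with an SE of 0.18. Htr1a, the autoreceptor of raphe neurons and a receptor of pyramidal cells, lay between 5.77 and 6.84 on all arrays. Its region differences were -0.09 ± 0.24 in the PVCre and 0.02 ± 0.24 in the PV-tdTomato line. Its line differences were -0.30 in striatum and -0.19 in cortex, with no call, although that in striatum was -0.77 and called without the 6 arrays of lowest Pvalb (adjusted p = 0.01).

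The Gs-coupled receptors Htr4 and Htr7 were close to background, and both were lower in PVCre cells in both regions. Htr4, known for memory and gut motility, measured 5.25, 5.35, 5.42 and 5.46 in PVCre striatum and 5.15, 5.12, 5.05 and 4.98 in PVCre cortex. It measured 6.78, 6.74, 6.27 and 6.01 in PV-tdTomato striatum and 6.61, 6.81, 5.51 and 5.74 in PV-tdTomato cortex. The lines did not overlap in either region, and 3 of 4 striatal and 2 of 4 cortical PV-tdTomato arrays stood above the background range. The differences were -1.08 ± 0.25 in striatum (adjusted p = 0.0024) and -1.09 ± 0.25 in cortex (adjusted p = 0.0023). Taken from the top of the background range they were at least 1.27-fold in striatum and at least 1.05-fold in cortex. Each was called in 27 of 28 alternatives and missed without the 8 high-Xist arrays (-1.16, adjusted p = 0.15, and -1.27, adjusted p = 0.1).

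Htr7, which has been linked to circadian rhythm and thermoregulation, ranged from 5.20 to 5.46 in PVCre striatum and from 5.01 to 5.40 in PVCre cortex. It ranged from 5.61 to 6.20 in PV-tdTomato striatum and from 5.31 to 6.13 in PV-tdTomato cortex. The lines did not overlap in striatum and did in cortex. The differences were -0.56 ± 0.19 in striatum (adjusted p = 0.02) and -0.54 ± 0.19 in cortex (adjusted p = 0.024), between levels that mostly lay within the background range, so no fold is given. The striatal call held under 24 of 28 alternatives. It was lost, for example, without PV-tdTomato striatum replicate 1 (-0.46, adjusted p = 0.065) or 2 (-0.49, 0.057) or PVCre striatum replicate 4 (-0.51, 0.053). The cortical call held under 21 of 28 alternatives. Among the losses were the fits without PV-tdTomato cortex replicate 1 (-0.45, 0.074) or 2 (-0.41, 0.081) or PVCre cortex replicate 4 (-0.48, 0.064). Another was the fit with oligodendrocyte markers as a covariate (-0.16, 0.29). Region differences of Htr4 and Htr7 were 0.15 to 0.30 in both lines and were not called. Htr6, within the background range on every array, was also lower in PVCre cells in both regions, as given below.

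In the PVCre line, 0 of the 10 receptors were called between striatum and cortex by limma, where 3.96% of all genes were called. At an unadjusted p under 0.05 there were 3, Htr1b, Htr1d and Htr1f, against 15.5% of all genes. The median receptor difference was 0.38 in that line, with -0.01 over all genes, and 0.09 in the PV-tdTomato line, with 0.02 over all genes. In the PV-tdTomato line 5 receptors had an unadjusted p under 0.05, against 7.99% of all genes. The interaction called 0 receptors and 0.199% of all genes. At an unadjusted p under 0.05 it held 3, Htr1f, Htr2c and Htr3a, against 7.17% of all genes. Both region comparisons and both line comparisons share arrays, so their values are set side by side and not counted as separate support.

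Within each gene, the order of the 4 group means varied by receptor. For Htr3a it ran PV-tdTomato cortex, PV-tdTomato striatum, PVCre striatum, PVCre cortex from high to low, and all neighbouring groups were free of overlap. For Htr2c it ran PV-tdTomato striatum, PV-tdTomato cortex, PVCre cortex, PVCre striatum, and each neighbouring pair overlapped. For Htr4, Htr5a and Htr7 the 2 PV-tdTomato groups came first and overlapped with each other. Htr1f was highest in PVCre striatum, where its range of 6.49 to 7.32 overlapped that of PV-tdTomato cortex, 6.31 to 6.68. The mean of Htr2a was highest in PVCre striatum and lowest in PVCre cortex, and these ranges also overlapped.

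Several receptors varied together over the 16 arrays. Pearson r was 0.95 for Htr4 and Htr7, 0.91 for Htr2c and Htr4, 0.90 for Htr3a and Htr5a, and 0.87 for Htr4 and Htr5a, all over arrays that share line, region and pool. Htr1f ran apart from these, with r of -0.40 against Htr2c and -0.22 against both Htr4 and Htr7. Its highest r with another member was 0.63, with Htr2a. The genes whose levels were most like those of a called receptor were taken from 13931 named genes by Pearson r over the 16 arrays. For Htr3a they were Nrip3 (0.977), Mturn (0.976) and the stress peptide Crh (0.973). For Htr2c they were Fras1 (0.973), Slc25a25 (0.959) and the AMPA receptor auxiliary protein Cnih2 (0.959). The sodium channel gene Scn7a was the closest gene for both Htr4 (0.979) and Htr7 (0.966), followed for Htr4 by Scn9a (0.978) and Mapkbp1 (0.974) and for Htr7 by Tcerg1l (0.961) and Hs6st3 (0.954). For Htr5a they were the RNA-editing enzyme Adarb1 (0.982), Zfp618 (0.976) and Dync1i1 (0.972). The values for Htr1d were lower, with Ccdc148 (0.903), Mest (0.893) and Adgrl2 (0.891), and those for Htr1f lower still, with Stpg4 (0.747), Wif1 (0.746) and Rnase2a (0.746).

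Of the remaining receptor genes, Htr5b was the only one to pass the filter, and it was higher in striatum than in cortex in both lines. Htr5b is a Gi/o-type receptor gene that is intact in rodents and a pseudogene in humans. It measured 6.96, 7.46, 7.72 and 7.79 in PVCre striatum and 6.49, 6.57, 6.43 and 6.49 in PVCre cortex. It measured 7.77, 7.70, 7.35 and 7.19 in PV-tdTomato striatum and 6.03, 6.53, 6.24 and 6.33 in PV-tdTomato cortex. The regions did not overlap in either line. The region difference was 0.98 ± 0.18 in the PVCre line (adjusted p = 0.0053) and 1.22 ± 0.18 in the PV-tdTomato line (adjusted p = 0.0011). It was called in 27 of 29 and 28 of 29 alternatives, and missed without the 8 high-Xist arrays in both lines (0.89, adjusted p = 0.43, and 1.26, adjusted p = 0.094) and without the 6 arrays of lowest Pvalb in the PVCre line (1.02, adjusted p = 0.059). Its line differences were -0.02 in striatum and 0.22 in cortex and were not called. Of all genes, 2.9% were called as higher in striatum in the PVCre and 1.76% in the PV-tdTomato line. Also higher in striatum were 6 of 6 tested ependymal markers in each line. So were 3 of 7 tested striatal projection neuron markers in the PVCre and 4 of 7 in the PV-tdTomato line. Their part in the Htr5b levels was not tested. Htr2b lay between 4.49 and 4.94, Htr3b between 5.21 and 5.77 and Htr6 between 4.94 and 5.98, all within the background range. Even so, Htr6 averaged 5.04 in PVCre and 5.5 in PV-tdTomato striatum, and 5.06 and 5.71 in cortex. Its arrays did not overlap between the lines in either region. Htr3b averaged 5.23 and 5.53 in striatum and 5.32 and 5.55 in cortex, in the same order. Htr2b ran the other way, with 4.79 and 4.62 in striatum and 4.71 and 4.63 in cortex.

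**Figure D4:**
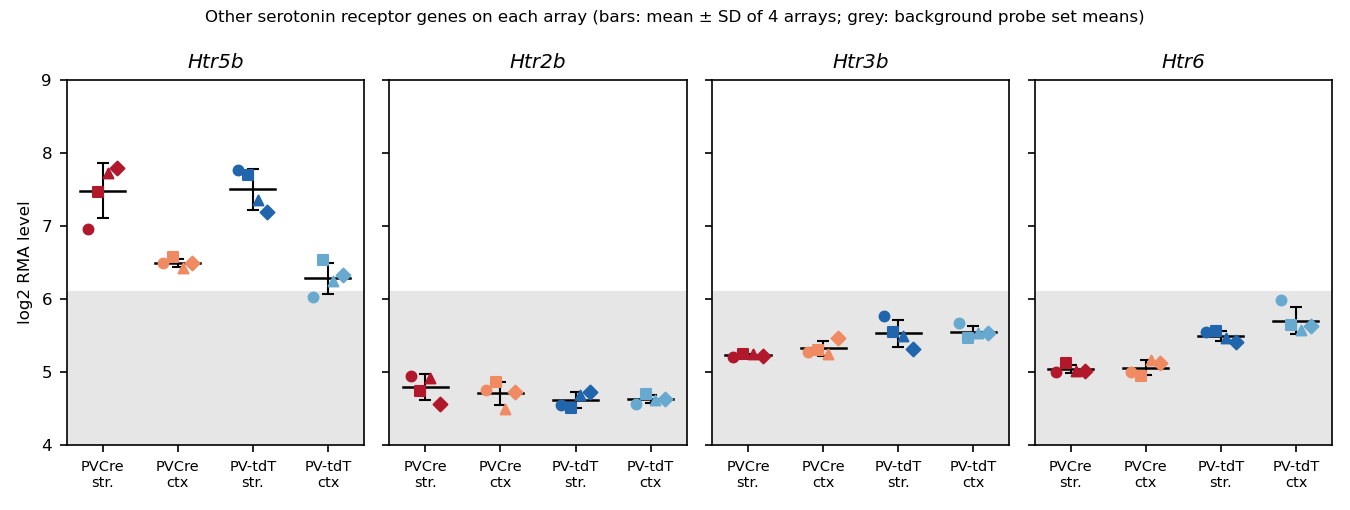
Level of the receptor genes Htr5b, Htr2b, Htr3b and Htr6 (vertical axis, log2 RMA level) on every array, by group, with bars for the mean and SD of 4 arrays and grey for the range of background probe set means. Striatal Htr5b arrays (6.96 to 7.79) stand above cortical ones (6.03 to 6.57) in both lines, and the other 3 genes lie in the grey range.

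Genes that act before or after the receptors were read from 5 lists. Of 6 tested genes for serotonin synthesis, transport and breakdown, the PVCre region comparison called 2, against 3.96% of all genes. Maob, which breaks down monoamines, was higher in striatum (7.45 in striatum, 5.98 in cortex, difference 1.47 ± 0.24, adjusted p = 0.0018). Ddc, which makes serotonin from its precursor, was lower in striatum (8.17 in striatum, 9.62 in cortex, -1.46 ± 0.32, adjusted p = 0.017). The PV-tdTomato region comparison called 0 of the 6, against 2.36% of all genes. Slc29a4, a low-affinity monoamine transporter, was lower in PVCre cells in both regions (-1.60 ± 0.24 in striatum and -1.57 ± 0.24 in cortex, adjusted p = 7.9e-05 and 9.7e-05), with PVCre levels at background. Ddc was lower in PVCre striatum than in PV-tdTomato striatum (-0.94 ± 0.32, adjusted p = 0.023), and Maob was lower in PVCre cortex than in PV-tdTomato cortex (-0.85 ± 0.24, adjusted p = 0.0082). The serotonin transporter Slc6a4 had calls of 0.23 in striatum and 0.28 in cortex, and the vesicular transporter Slc18a2 one of 0.28 in cortex, between levels that were all within the background range. The list medians were 0.08 in striatum and -0.22 in cortex between the lines, 0.09 between PVCre regions and 0.17 between PV-tdTomato regions. Markers of serotonergic neurons had list means of 5.26 to 5.83 on all arrays.

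The Gq list had calls between the regions of both lines: 2 of 8 tested were higher in PVCre striatum than in PVCre cortex, against 2.9% of all genes, and 1 of 8 in the PV-tdTomato line, against 1.76%. Gna14, a Gq-family subunit, was higher in striatum in the PVCre line (7.26 in striatum, 5.61 in cortex, 1.65 ± 0.33, adjusted p = 0.01) and in the PV-tdTomato line (7.52 and 5.60, 1.92 ± 0.33, adjusted p = 0.004). Prkcb, a protein kinase C, was higher in striatum in the PVCre line (1.2 ± 0.31, adjusted p = 0.042). Between the lines, 2 of 8 Gq genes were lower in PVCre striatum, under the 35.3% of all genes, and 5 of 8 in PVCre cortex, against 34.6%. No Gq gene was higher. Gna11 differed by -1.81 ± 0.19 in striatum and -1.43 ± 0.19 in cortex, and Plcb1 by -1.21 ± 0.34 and -1.51 ± 0.34. Of 8 tested Gi/o genes, 0 were called between regions in either line. In PVCre striatum 3 were lower, near the share of all genes, and 4 in PVCre cortex. Gnao1, the alpha subunit of Go, was lower in PVCre cells, with differences of -0.93 ± 0.16 in striatum and -0.97 ± 0.16 in cortex. The medians of the Gq list were -0.45 in striatum and -1.34 in cortex between the lines and 0.73 between PVCre regions and 0.15 between PV-tdTomato regions. Those of the Gi/o list were -0.50 and -0.91 between the lines and 0.19 and -0.18 between the regions of the same lines.

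Of 16 tested genes for Gs, adenylyl cyclases and cyclic AMP targets, the PVCre region comparison called 2 as higher in striatum, against 2.9% of all genes, and the PV-tdTomato one called 0, against 1.76% of all genes. The 2 were the phosphodiesterases Pde10a (8.66 in striatum, 7.12 in cortex, 1.53 ± 0.30, adjusted p = 0.009) and Pde1b (10.31 and 7.82, 2.49 ± 0.63, adjusted p = 0.041). In the PV-tdTomato line their differences were 1.05 and 2.1 and were not called. Both are known from striatal projection neurons. Markers of those cells were higher in striatum for 3 of 7 tested in the PVCre and 4 of 7 in the PV-tdTomato line. The part of those cells in the Pde10a and Pde1b levels was not tested. Between the lines, 9 of 16 were lower in PVCre striatum and 11 of 16 in PVCre cortex, against 35.3% and 34.6% of all genes, and 0 were higher. The cyclase Adcy3 differed by -1.49 ± 0.18 in striatum and -1.88 ± 0.18 in cortex, and Prkaca, a catalytic subunit of protein kinase A, by -2.35 ± 0.39 and -2.67 ± 0.39. The list medians were -0.99 in striatum and -1.28 in cortex between the lines, 0.34 between PVCre regions and 0.27 between PV-tdTomato regions.

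Receptor partners and editing enzymes were lower in PVCre cells for 5 of 7 tested in striatum and 7 of 7 in cortex, with list medians of -1.32 and -2.28 against -0.23 over all genes. Dlg4, a scaffold that binds Htr2a and Htr2c, differed by -2.38 ± 0.34 in striatum and -2.28 ± 0.34 in cortex. Arrb1, an arrestin, differed by -1.89 ± 0.45 and -2.94 ± 0.45. Ric3, a chaperone of the Htr3a channel, differed by -0.89 ± 0.16 and -1.02 ± 0.16, with adjusted p of 4e-04 and 0.00014. Mpdz, a scaffold that binds Htr2c, was the list's only call between regions: it was lower in striatum in the PV-tdTomato line (8.51 in striatum, 9.15 in cortex, -0.64 ± 0.12, adjusted p = 0.0074). These counts of lower genes stand beside the 35.3% of all genes called as lower in PVCre striatum and the 34.6% in PVCre cortex. Control separation and microglial markers differed between the lines as given above.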

How the data were processed

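Gene expression was measured on Affymetrix mouse transcriptome arrays from 5 ng of RNA of sorted cells. Per the submitters' processing notes, the authors made the deposited log2 levels with RMA and Affymetrix Expression Console. No source used here gives a version or says which arrays were normalized together. Of 72688 probe sets, 65956 were transcript clusters. Platform annotation gave 30604 a single gene, 2146 several and 33206 none, and symbols of 827 were updated. The cluster with the highest mean stood for a gene, and the third of genes with the lowest mean (33.3%) was left out. No array was left out, no arrays were identical (highest r 0.9894), and microarrays give no read depth, so the number of arrays limits the precision.

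Differences between group means were fitted over all 16 arrays by lmFit and eBayes of limma 3.58.1 (R 4.3.3), adjusted by Benjamini-Hochberg over 20095 genes with a threshold of 0.05. Errors of differences are SE and those of levels are SD. Folds written "at least" put levels of the lower group under 6.1 at 6.1, the highest mean of a background probe set. They allow for background only and not for the error of the difference, so the alternatives can give smaller folds. P-values measure the spread between pools of cells. The fit was tested on simulated data. Plots used matplotlib 3.10.9 and pandas 2.3.3 under Python 3.11.15.

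The receptors, the lists and the tests were chosen with earlier results of these data known. All 10 receptors were named, with Pvalb, Gad1 and Xist, and the 3 genes most like each called receptor by Pearson r, leaving out predicted models and clones. The plan for each pathway list was up to 4 called genes per comparison by smallest adjusted p. Not all genes of that plan are named in the text. The correlations of Htr2a with Pvalb and of Htr3a with Vip were chosen after their values were seen. Alternatives were other filters, every cluster on its own, other scalings, a trended robust prior, array weights, only the arrays compared, the replicate block, an oligodendrocyte marker covariate, Xist as a covariate, leaving out the 6 arrays of lowest Pvalb or the 8 of high Xist, and leaving out each array.

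Striatal and cortical PV-tdTomato arrays with the same number deviated together from their group means (r = 0.58 to 0.76 in 4 pairs). Only 2 of the 4 arrays matched their own number best. The main fit did not pair arrays, so its p-values leave this likeness out. Numbers were taken as pairs only in the replicate block, which is an alternative. Pairs of the other comparisons did not all correlate (-0.29 to 0.69 between PVCre regions, -0.44 to -0.08 between lines in striatum, -0.64 to 0.5 in cortex). In PVCre cortex the numbers in titles and descriptions differ; those in titles were used.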

Additional observations from a re-analysis of the deposited data

Results flagged for a closer look

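In 72 sets of 4 arrays (a gene in a group), 7 arrays stood apart from the other 3 by Dixon's gap test, which chance gives in about 1 in 20 sets. Among the receptors, Htr1b was low on PVCre cortex replicate 4 (5.33), Htr6 was high on PV-tdTomato cortex replicate 1 (5.98), and Htr6 was high on PVCre striatum replicate 2 (5.12). All 3 values lie within the background range. Xist stood apart on an array of each group: it was low on replicate 2 of PVCre striatum (5.9) and of PVCre cortex (6.56), and high on replicate 3 of PV-tdTomato striatum (15.93) and of PV-tdTomato cortex (16.01).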

How the results depend on the processing

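Of 1420 values of the 10 receptors under the alternatives, 1347 kept their side of the threshold and 0 called values changed sign. The number of receptors called between regions in the PV-tdTomato line, 1 as reported, was 2 with array weights, 2 with the replicate block, 2 with the oligodendrocyte covariate, 0 with only the arrays compared, 0 without the 8 high-Xist arrays, and 0 to 1 when each array was left out. With array weights these were Htr1d (0.69) and Htr2c (2.95), with Htr3a at -1.94. Between regions in the PVCre line, 0 as reported, it was 1 with array weights and 0 to 1 when each array was left out. Between the lines in striatum, 6 as reported, it was 3 with a stricter filter that left out genes under the median level, which removes Htr4 and Htr7 from the test, 0 without the 8 high-Xist arrays, and 3 to 6 when each array was left out. Between the lines in cortex, 5 as reported, it was 3 with a stricter filter that left out genes under the median level, 3 with only the arrays compared, 3 with the oligodendrocyte covariate, 3 with Xist as a covariate, 1 without the 8 high-Xist arrays, and 3 to 5 when each array was left out. In the interaction, 0 as reported, it was 1 with the replicate block, 1 with the oligodendrocyte covariate, 1 without the 6 arrays of lowest Pvalb, each time Htr3a, and 0 whichever array was left out. Leaving out the 8 high-Xist arrays leaves a lone PVCre array in each region, which is assumed to vary like the other groups. Without the 6 arrays of lowest Pvalb, PVCre cortex keeps only replicates 1 and 3, and each PV-tdTomato region only replicates 1 and 2. For Htr1d between the lines in striatum, the replicate block also ended the call (-0.37, adjusted p = 0.081), and beside the Htr1d, Htr2c and Htr3a values given in the results it changed no other receptor's call. The causes of these changes were not tested.

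The count of all genes called also moved. Between regions in the PV-tdTomato line, 474 as reported, it was 304 with a stricter filter that left out genes under the median level, 1646 with array weights, 283 with only the arrays compared, 741 with the oligodendrocyte covariate, 1040 without the 6 arrays of lowest Pvalb and 156 without the 8 high-Xist arrays. In the PVCre line, 796 as reported, it was 2529 with array weights, 2088 with the replicate block and 94 without the 8 high-Xist arrays. Between the lines it was 3655 in striatum and 6060 in cortex without the 8 high-Xist arrays, against 10721 and 10762. With quantile normalization 64.3% of the genes called between PVCre regions were higher in striatum, against 73.1% as deposited.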
